A study of Mus musculus with 62 samples.

Results

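Metabotropic glutamate receptors are the G protein-coupled receptors of the transmitter glutamate, and 6 of their genes, Grm2, Grm3, Grm4, Grm5, Grm7 and Grm8, were followed in bulk RNA-sequencing of the mouse prefrontal cortex (PFC) and nucleus accumbens (NAc). The genes were chosen by symbol, each was matched to its row of the count table through its Ensembl identifier, and all 6 were among the 11121 genes counted. The family is divided into 3 groups. The group I receptors couple through Gq to phospholipase C, which releases calcium from internal stores and activates protein kinase C, and they sit mainly at the edge of the postsynaptic density. The group II and group III receptors couple through Gi/o, which inhibits adenylyl cyclase and opens Girk potassium channels, and many of them act on nerve terminals, where they limit further transmitter release. Of the genes followed, Grm5 (mGluR5) belongs to group I, Grm2 and Grm3 (mGluR2 and mGluR3) to group II, and Grm4, Grm7 and Grm8 (mGluR4, mGluR7 and mGluR8) to group III. Grm3 is also made by astrocytes, and the projection neurons of the striatum, of which the NAc is the ventral part, are known for their mGluR5.

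The libraries came from wild-type C57BL/6j male mice aged 15 weeks. Mice exposed to multimodal chronic restraint stress (mCRS), in which restraint in a tube was repeated daily under changing conditions, were compared with unstressed controls (CTR). The PFC was read in 15 CTR and 15 mCRS libraries, and the NAc in 16 of each. The libraries were made by BRB-seq, a method that barcodes each RNA sample during reverse transcription from the poly(A) tail and pools the samples early, so that a gene is read mostly near the 3′ end of its transcripts. Values therefore compare 1 gene across libraries and were not compared between genes.

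Total counts lay between 945286 and 4857359 per library, and the share of the 11121 genes with at least 1 count was 87.1% ± 4.42 (SD, n = 15) in the PFC of CTR mice, 82.3% ± 6.22 (SD, n = 15) in the PFC of mCRS mice, 90.2% ± 7.13 (SD, n = 16) in the NAc of CTR mice and 88.5% ± 7.43 (SD, n = 16) in the NAc of mCRS mice. In both treatments together, the 14 markers of striatal projection neurons were all lower in the PFC than in the NAc, and 10 of the 12 markers of cortical excitatory neurons were higher, so the regions carried their labels. A pair of NAc libraries stood apart. In NAc CTR 7, the striatal markers summed to 635 CPM (counts scaled to a common library size with TMM factors, the unit of every level given here), against 3150 to 9883 CPM in the other 31 NAc libraries, with 1 of the 14 at 0. The 5 counted hypothalamus markers summed in it to 2823 CPM, against 102 to 1008 CPM. In NAc mCRS 10, the 4 counted choroid plexus markers summed to 24235 CPM, against 52.3 to 456 CPM in the others. Values of the receptor genes that use NAc libraries are therefore given with both and without both.

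The genes differed in how deeply they were read. Grm5, on the plus strand of chromosome 7 (chr7:87584168-88134907, build GRCm38; ENSMUSG00000049583), collected 53260 counts over the 62 libraries and was found in every one. Grm3, on the minus strand of chromosome 5 (chr5:9485541-9725170; ENSMUSG00000003974), collected 12189 counts and was also found in every library. Both could be followed in each mouse, which was not so for the other 4 genes.

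Grm7, on the plus strand of chromosome 6 (chr6:110645581-111567230; ENSMUSG00000056755), collected 7674 counts and was at 0 in 4 libraries. Grm4, on the minus strand of chromosome 17 (chr17:27422387-27521403; ENSMUSG00000063239), collected 3959 counts and was at 0 in 8 libraries. Grm8, on the minus strand of chromosome 6 (chr6:27275119-28135178; ENSMUSG00000024211), collected 2488 counts, and Grm2, on the minus strand of chromosome 9 (chr9:106643095-106656082; ENSMUSG00000023192), collected 2372, each with 16 libraries at 0. Their levels are therefore given with the number of libraries at 0. Grm2 shares 470 exonic bases with the antisense gene Gm28111, and 19.6% of the 70-base windows from the last 1000 bases of its transcripts also occur in that gene, which was not counted here. Whether counting kept the strand is not given in the sources used here, so the Grm2 counts are less certain. For the other genes no such window was found. Grm7 does share 130 exonic bases with the antisense gene Gm20387, and Grm8 shares 96 with the microRNA gene Mir592 on the same strand. Neither of these was counted here.

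The first comparison asked how the receptors differ between the regions. Grm2, Grm3 and Grm8 were higher in the PFC than in the NAc over both treatments, while no difference passed the threshold for Grm4, Grm5 or Grm7. The fold was 5.75 for Grm2, 1.77 for Grm3 and 4.94 for Grm8. Grm2 and Grm8 were too low for the filter on low counts in the NAc alone, so they entered the comparison through their PFC libraries. Both were also called when no filter was applied. That fit is no separate evidence, because 11025 of the 11121 genes passed the filter and the counts of both genes are the same. This comparison over both treatments was added after the data had been seen, and the comparisons within each treatment are the planned ones. Within unstressed mice alone Grm3 passed, and within mCRS mice none did. In bulk tissue, fewer cells of a type and less RNA per cell cannot be told apart.

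Grm2, an autoreceptor of glutamatergic terminals, was read at 1.19 to 89.7 CPM (median 27.7) in the PFC of CTR mice and at 0.414 to 59.8 CPM (median 14.4) in the PFC of mCRS mice. In the NAc it lay between 0 and 23.4 CPM (median 2.14) in CTR mice, with 5 of 16 libraries at 0, and between 0 and 21.4 CPM (median 0) in mCRS mice, with 11 of 16 at 0. The regions overlapped, but 11 of the 15 PFC libraries of CTR mice lay above every NAc library of CTR mice. No PFC library was at 0. PFC against NAc, the log2 fold change was 2.38 ± 0.91 (SE) in CTR mice (adjusted p = 0.163) and 2.67 ± 0.91 in mCRS mice (adjusted p = 0.0800). Over both treatments it was 2.52 ± 0.64, with a 95% interval from 1.25 to 3.80 and an adjusted p of 0.00433 (edgeR's quasi-likelihood test, Benjamini-Hochberg adjustment over 11025 genes). Without NAc CTR 7 and NAc mCRS 10 these values were 2.32 in CTR mice, 2.59 in mCRS mice and 2.45 over both (adjusted p = 0.00675).

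Grm3, the other group II receptor, was found in every library. Its level was 27.9 to 202 CPM (median 94.8) in the PFC of CTR mice, 23.3 to 211 CPM (median 67.8) in the PFC of mCRS mice, 22.4 to 107 CPM (median 47.2) in the NAc of CTR mice and 13.9 to 158 CPM (median 62.6) in the NAc of mCRS mice. Of the 15 PFC libraries of CTR mice, 7 lay above the highest NAc library of CTR mice and none lay below the lowest. The log2 fold change of PFC against NAc was 1.07 ± 0.33 (SE; 95% interval 0.42 to 1.73) in CTR mice, with an adjusted p of 0.0361, and 0.57 ± 0.33 in mCRS mice, with an adjusted p of 0.428. Over both treatments it was 0.82 ± 0.23 (adjusted p = 0.00880), and 0.82 without NAc CTR 7 and NAc mCRS 10 (adjusted p = 0.0117). Within the treatments the values without them were 1.06 in CTR mice (adjusted p = 0.0471) and 0.58 in mCRS mice (adjusted p = 0.445). Over both treatments, 1 of the 13 astrocyte markers was higher in the PFC and 2 were lower, with a median log2 fold change of -0.43. Their summed level was 3228 to 4923 CPM (median 4216) in the PFC of CTR mice and 3352 to 5143 CPM (median 4251) in the NAc of CTR mice.

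The call for Grm3 in CTR mice lay close to the threshold. It was lost, with log2 fold changes between 0.99 and 1.05 and adjusted p-values between 0.0510 and 0.0737, when any 1 of 12 libraries was left out, namely PFC CTR 8, 10, 11, 12 or 15, or NAc CTR 3, 4, 5, 8, 12, 15 or 16. It was also lost with RLE in place of TMM factors (adjusted p = 0.0603) and after adjustment for how many genes each library detected (adjusted p = 0.0506). With the replicate number as a block it was lost as well (adjusted p = 0.224). Over both treatments, Grm2, Grm3 and Grm8 were each called in all 62 fits that left out 1 library. With the replicate block Grm3 was not called there (adjusted p = 0.0789). Within the libraries numbered 1 to 8 and those numbered 9 and above, a split chosen after the data had been seen that leaves fewer libraries in each fit, Grm3 was called in neither (adjusted p = 0.333 and 0.0750), nor was Grm8 (adjusted p = 0.0951 and 0.146). In the same split Grm2 was called in the first, at a log2 fold change of 3.30 (adjusted p = 0.0296), and not in the second, at 1.603 (adjusted p = 0.401).

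Grm8, a presynaptic group III receptor, lay between 0 and 57.8 CPM (median 22.2) in the PFC of CTR mice and between 0 and 156 CPM (median 30.045) in the PFC of mCRS mice. In the NAc its level was 0 to 16.6 CPM (median 0.379) in CTR mice and 0 to 56.5 CPM (median 2.66) in mCRS mice, with 7 and 6 of 16 libraries at 0. Its groups overlapped, and 3 PFC libraries also had no count. Above every NAc library of the same treatment lay 8 of the 15 PFC libraries of CTR mice and 4 of the 15 of mCRS mice. Between PFC and NAc the log2 fold change was 2.69 ± 0.92 (SE) in CTR mice (adjusted p = 0.0968) and 1.91 ± 0.92 in mCRS mice (adjusted p = 0.303). Over both treatments it was 2.30 ± 0.65, with a 95% interval from 1.01 to 3.60 and an adjusted p of 0.0116, and 2.37 without NAc CTR 7 and NAc mCRS 10 (adjusted p = 0.0101). Without them it was 2.92 in CTR mice and 1.82 in mCRS mice, neither of them called. Adjusted for how many genes each library detected, it was 1.85, and the call was lost (adjusted p = 0.151).

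**Figure D1:**
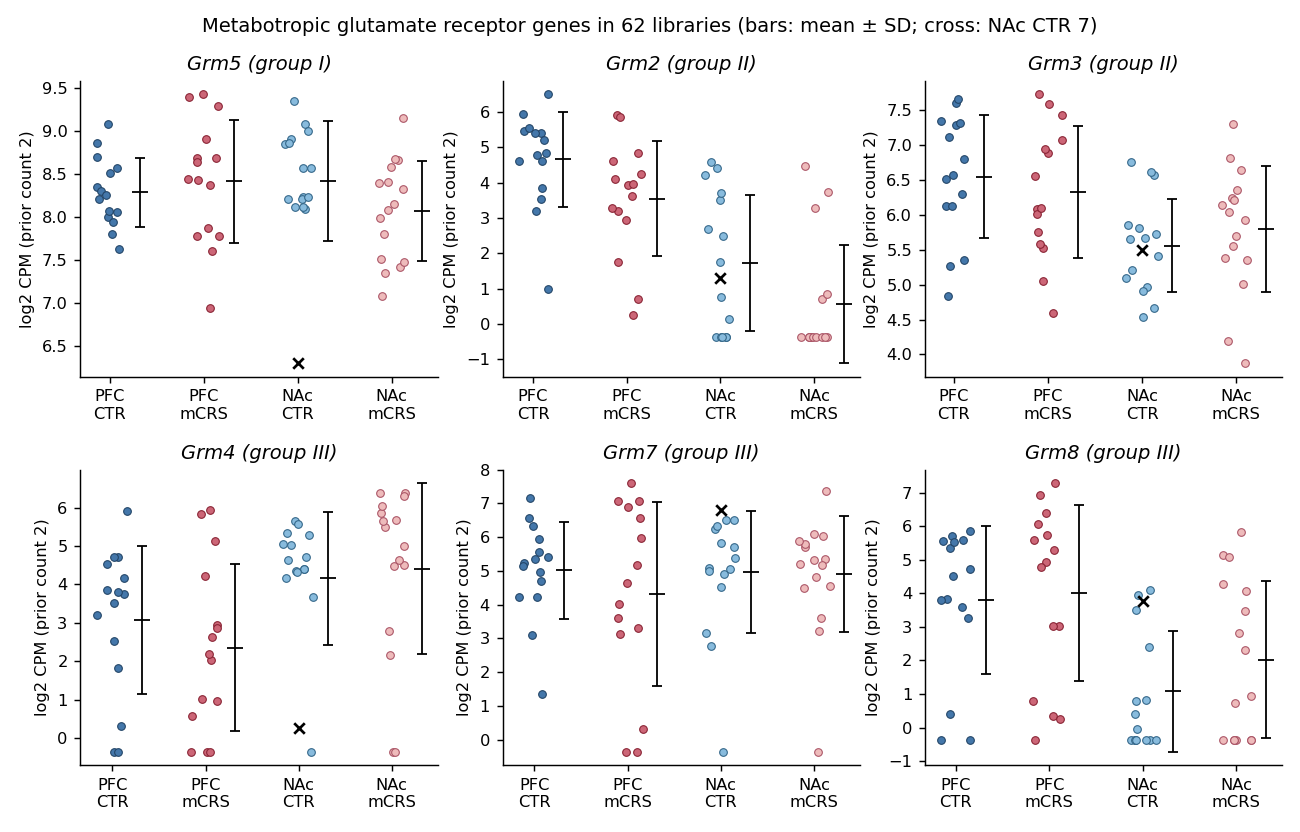
Each point is 1 library, with log2 CPM (prior count 2) of the 6 receptor genes on the vertical axes and the 4 groups on the horizontal axes; bars give the mean ± SD and the cross marks NAc CTR 7. Grm2 and Grm8 have many NAc libraries at or near the floor and most PFC libraries above it, whereas the groups of Grm5 and Grm7 cover much the same range.

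Grm4, a group III receptor known from the terminals of striatal output neurons, had its higher medians in the NAc. It was read at 0 to 59.0 CPM (median 12.7) in the PFC and 0 to 49.8 CPM (median 22.3) in the NAc of CTR mice, and at 0 to 60.6 CPM (median 3.80) in the PFC and 0 to 83.1 CPM (median 37.6) in the NAc of mCRS mice. All groups overlapped down to 0. At 0 were 2 of 15 PFC libraries of CTR mice, 3 of 15 of mCRS mice, 1 of 16 NAc libraries of CTR mice and 2 of 16 of mCRS mice. Over both treatments the log2 fold change was -1.17 ± 0.54 (SE), with an unadjusted p of 0.0345 and an adjusted p of 0.183, so the difference did not pass. It was -1.17 without NAc CTR 7 and NAc mCRS 10 as well (adjusted p = 0.197). Within CTR mice it was -0.78 ± 0.76 (SE; adjusted p = 0.820). Within mCRS mice it was -1.56 ± 0.76, with an unadjusted p of 0.0490 and an adjusted p of 0.316. Over 10 alternatives, among them the fit without that pair, these lay from -1.32 to -0.65 and from -2.37 to -1.47.

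Grm7 is a widely expressed receptor of the active zone of terminals. It lay between 1.80 and 142 CPM (median 37.3) in the PFC and between 0 and 111 CPM (median 37.1) in the NAc of CTR mice. In mCRS mice it lay between 0 and 193 CPM (median 24.4) in the PFC and between 0 and 164 CPM (median 37.9) in the NAc. At 0 were 2 of 15 PFC libraries of mCRS mice, 1 of 16 NAc libraries of CTR mice and 1 of 16 of mCRS mice. The 4 groups covered much the same range. Over both treatments the log2 fold change of PFC against NAc was 0.14 ± 0.41 (SE; 95% interval -0.67 to 0.95). It was 0.16 without NAc CTR 7 and NAc mCRS 10. Within the treatments it was -0.07 ± 0.58 (SE) in CTR mice and 0.35 ± 0.58 in mCRS mice. Over 10 alternatives, among them the fit without that pair, these lay from -0.13 to 0.07 and from -0.60 to 0.38.

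Grm5, the postsynaptic group I receptor, was the most precisely measured of the genes. Its level was 197 to 543 CPM (median 306) in the PFC and 77.9 to 652 CPM (median 341) in the NAc of CTR mice, and 123 to 689 CPM (median 347) in the PFC and 135 to 569 CPM (median 277) in the NAc of mCRS mice. The lowest of all 62 values was that of NAc CTR 7, the library low in striatal markers. The log2 fold change of PFC against NAc over both treatments was 0.10 ± 0.14 (SE), and its 95% interval from -0.19 to 0.38 corresponds to folds between 0.880 and 1.30. Without NAc CTR 7 and NAc mCRS 10 it was 0.06. Within the treatments the signs were opposite, so this interval does not bound the difference in either. The log2 fold change was -0.20 ± 0.20 (SE) in CTR mice (adjusted p = 0.827), with folds from 0.659 to 1.14. In mCRS mice it was 0.40 ± 0.20 (adjusted p = 0.324), with folds from 0.998 to 1.73. Over 10 alternatives, among them the fit without that pair, these lay from -0.28 to -0.17 and from 0.28 to 0.42.

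The counts of calls are read against those over all genes. In CTR mice 1 of the 6 receptor genes was called between the regions, where 5.44% of the 11025 genes tested were called, and 3 had an unadjusted p below 0.05, where 13.3% of all genes did. In mCRS mice 0 of 6 were called against 6.49% of all genes, and 3 had an unadjusted p below 0.05 against 15.8%. Over both treatments 3 of 6 were called against 11.3%, and 4 had an unadjusted p below 0.05 against 21.5%. Grm2 and Grm8, among the 3 called, passed the filter on low counts through the PFC, where they were higher. The median log2 fold change of the 6 genes over both treatments was 0.48, against -0.07 for all genes. The CTR and mCRS comparisons use different libraries, and the third uses all of them, so it is no further evidence beside the other two. Cell type markers of the regions moved in the same comparisons. The summed cortical excitatory markers were 1276 to 2599 CPM in the PFC and 167 to 1028 CPM in the NAc, and the summed striatal markers were 645 to 1867 CPM and 635 to 9883 CPM; their part in the receptor differences was not tested.

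**Figure D2:**
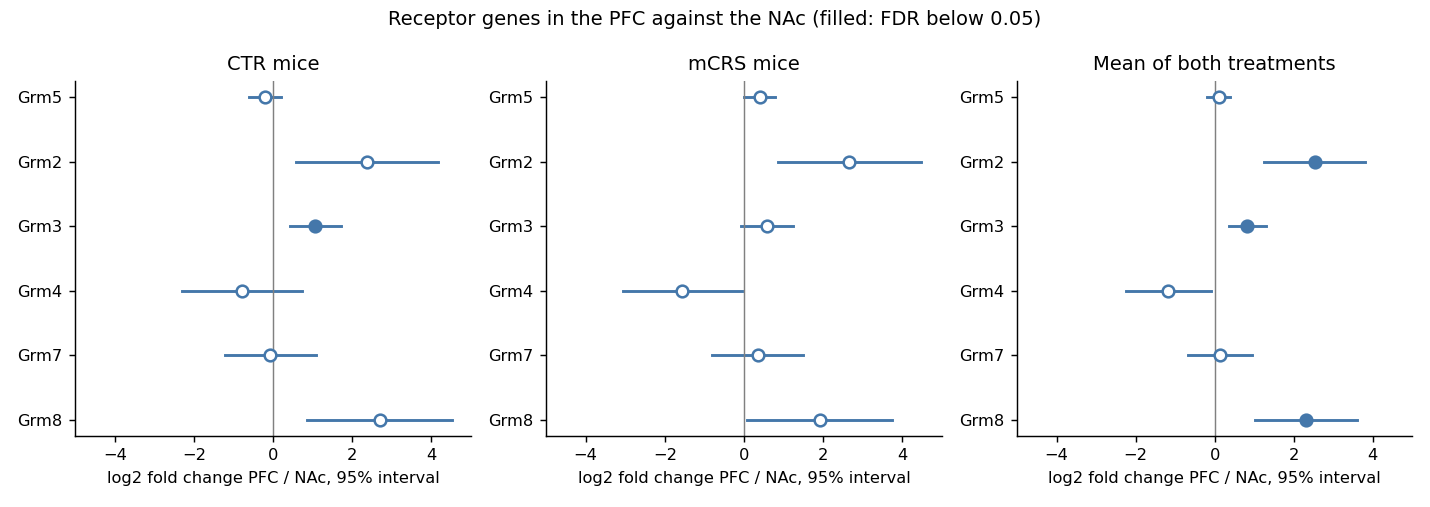
Log2 fold changes of PFC against NAc with 95% intervals for the 6 receptor genes in CTR mice, in mCRS mice and over both treatments; filled points have an adjusted p below 0.05. Grm3 is filled in CTR mice, no gene is filled in mCRS mice, and Grm2, Grm3 and Grm8 are filled over both.

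The genes that carry the signal of these receptors differed between the regions in both directions. The counts of each list are read against the 11.3% of the 11025 genes tested that were called over both treatments. Of the group I transduction genes, 15 of 17 were tested over both treatments, 3 were higher in the PFC and 1 was lower. Among those higher were Dgkz, a diacylglycerol kinase that ends the diacylglycerol signal, at a log2 fold change of 1.10 ± 0.17 (SE), and Gnaq, the alpha subunit of Gq, at 0.65 ± 0.13. The lower gene was Dgkb, another diacylglycerol kinase, at -0.59 over both treatments and -0.70 ± 0.19 (SE) in mCRS mice. Among the scaffolds and regulators of group I receptors, 18 of 21 were tested, 3 were higher in the PFC and 1 was lower. Dlgap1, which links the postsynaptic density to Shank proteins, stood at 1.53 ± 0.13 (SE) and Shank1, one of those proteins, at 0.74 ± 0.15. Ncdn, encoding neurochondrin, which binds mGluR5, stood at -0.44 ± 0.08 (SE). Homer1, which ties mGluR5 to this scaffold, was also higher in the PFC, by 0.69 over both treatments and by 0.88 ± 0.22 (SE) in mCRS mice.

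Of the transduction genes of groups II and III, 22 of 23 were tested over both treatments, and 7 were higher and 5 lower in the PFC. Of all genes tested, 11.3% were called. The adenylyl cyclases divided by isoform. Adcy1, a calcium-stimulated cyclase of the cortex, was higher in the PFC by 2.16 ± 0.18 (SE) on the log2 scale, and Adcy5, the main cyclase of the striatum, was lower, at -1.99 ± 0.13. Kcnj3, a Girk channel subunit, was higher in the PFC by 1.91 ± 0.30 (SE). Adcy2 was also higher, by 1.20 over both treatments. It was called in CTR mice, at 1.95 ± 0.36 (SE), and not in mCRS mice, at 0.46 (adjusted p = 0.619). Of the 10 partner genes of these receptors, 1 was higher and 1 lower, namely Nptn at 0.51 ± 0.10 (SE), which encodes the adhesion protein neuroplastin, and Cntnap2 at -1.19 ± 0.24, which encodes a neurexin-like protein of axons. Their median log2 fold change was -0.32, while it was 0.25 for group I transduction, 0.20 for group I scaffolds and 0.23 for group II and III transduction, against -0.07 for all genes. Without NAc CTR 7 and NAc mCRS 10 each list gave the same counts of calls over both treatments, and the value over both treatments of none of the genes named here moved by more than 0.07.

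**Figure D3:**
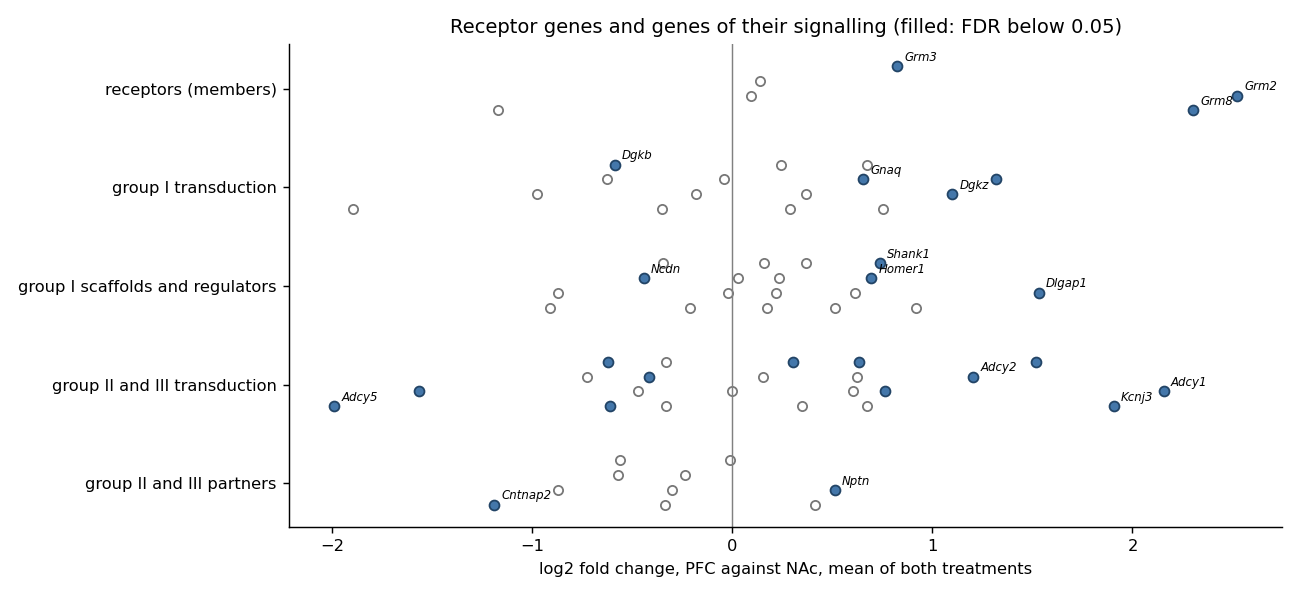
Log2 fold changes of PFC against NAc over both treatments for the receptor genes and 4 lists of genes of their signalling, 1 point per gene; filled points have an adjusted p below 0.05, and those of genes named in the text carry their symbol. Each list of signalling genes holds genes on both sides of 0, with Adcy1 and Adcy5 at opposite ends.

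The second comparison asked what mCRS did in the PFC, and no receptor gene passed the test there. All 6 were tested and 0 were called, where 0 of 8916 genes, or 0%, were called by edgeR. At an unadjusted p below 0.05 there were 0 of the 6, against 312 genes or 3.5% of all. DESeq2 also called 0 of the 6, and the smallest adjusted p among them was 0.608, for Grm5. The share of all genes that DESeq2 called is not reported here. The log2 fold change of mCRS against CTR was 0.23 ± 0.20 (SE) for Grm5, -0.86 ± 0.68 for Grm2, -0.17 ± 0.33 for Grm3, -0.13 ± 0.91 for Grm4, 0.32 ± 0.63 for Grm7 and 0.75 ± 0.76 for Grm8. The adjusted p of edgeR was 0.9997 for each of the 6.

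How far these values bound a change differs by gene. For Grm5 the 95% interval covers folds from 0.892 to 1.54, and for Grm3 from 0.561 to 1.42. For Grm2 it runs from 0.215 to 1.41, and 3 of the 15 mCRS libraries lay above the CTR median while 2 lay below the lowest CTR library. For Grm4 it runs from 0.257 to 3.25, for Grm7 from 0.524 to 2.98 and for Grm8 from 0.585 to 4.83. The intervals of Grm2, Grm4, Grm7 and Grm8 leave room for changes of several-fold. For Grm8, 4 of 15 mCRS libraries exceeded every CTR library. The share of genes detected was lower in the PFC of mCRS mice (82.3%) than of CTR mice (87.1%), and with it as a covariate the value for Grm8 turned from 0.75 to -0.30. Without PFC CTR 3, that for Grm4 turned to 0.23.

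In the NAc, 4 of the 6 genes were high enough to be tested and 0 were called, where 1 of 10141 genes, or 0.00986%, was called. At an unadjusted p below 0.05 there were 0 of the 4, against 207 genes or 2.04% of all. Grm5 had the smallest p. Its log2 fold change was -0.37 ± 0.19 (SE; 95% interval -0.75 to 0.01; unadjusted p = 0.0556), and 4 of the 16 mCRS libraries lay above the CTR median. Without NAc CTR 7 and NAc mCRS 10 it was -0.45 with an unadjusted p of 0.0121, and without NAc CTR 7 alone -0.44 with an unadjusted p of 0.0143. The adjusted p was 0.99995 with all libraries and the change passed in none of these fits.

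For the other NAc genes the intervals were wider. The log2 fold change of mCRS against CTR was 0.32 ± 0.35 (SE) for Grm3 and 0.30 without the pair of libraries, and 0.64 ± 0.59 for Grm4 and 0.46 without them. For Grm7 it was -0.11 ± 0.50 (SE) and turned to 0.12 without them. Of the 16 mCRS libraries, 6 lay above the highest CTR library for Grm4 and 2 for Grm3. Grm2 and Grm8 were too low for the filter. Fitted without it, Grm2 stood at -1.16 ± 1.10 (SE) and Grm8 at 1.52 ± 1.08, with 95% intervals from -3.36 to 1.03 and from -0.64 to 3.68. Without the pair of libraries these were -1.14 ± 1.13 and 1.83 ± 1.10 (SE).

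The third comparison asked whether mCRS acted differently in the 2 regions. The effect in the PFC minus that in the NAc was 0.60 ± 0.28 (SE) on the log2 scale for Grm5, with a 95% interval from 0.04 to 1.16, an unadjusted p of 0.0377 and an adjusted p of 0.99997. It was 0.67 without NAc CTR 7 and NAc mCRS 10 (unadjusted p = 0.0148), again short of the threshold after adjustment. Grm5 was the 1 receptor gene of 6 with an unadjusted p below 0.05, where 3.09% of the 11025 genes had one, and 0 of 6 were called, where 1 gene or 0.00907% was. The other 5 differences were 0.29 ± 1.29 (SE) for Grm2, -0.50 ± 0.47 for Grm3, -0.77 ± 1.07 for Grm4, 0.42 ± 0.81 for Grm7 and -0.78 ± 1.30 for Grm8. Without the pair of libraries they were 0.27, -0.48, -0.60, 0.18 and -1.10 in the same order of genes.

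**Figure D4:**
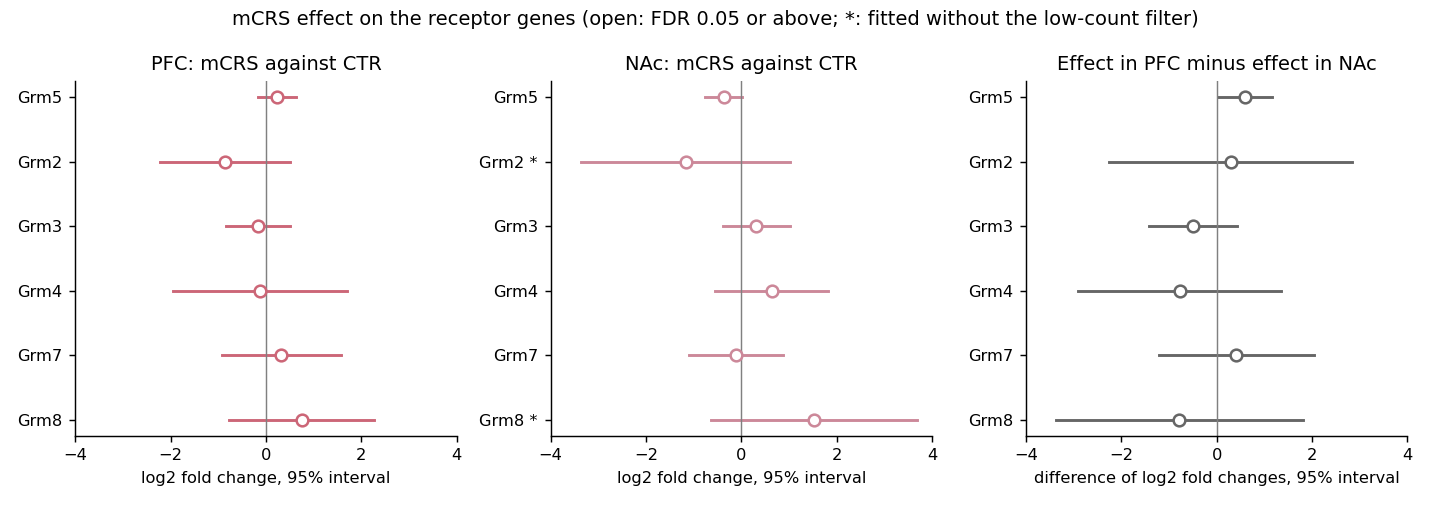
Log2 fold changes of mCRS against CTR with 95% intervals in the PFC and the NAc, and their difference, for the 6 receptor genes; all points are open because no adjusted p was below 0.05, and an asterisk marks genes fitted without the filter on low counts. Grm5 has the narrowest intervals and lies above 0 in the PFC and below 0 in the NAc.

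The signalling genes gave no call with mCRS either. In the PFC, 12 group I transduction genes, 17 group I scaffolds and regulators, 21 group II and III transduction genes and 8 partners were tested, and none passed. Unadjusted p-values below 0.05 numbered 1, 1, 3 and 0 in these lists, where 3.5% of the 8916 genes tested had one. The medians on the log2 scale were -0.16, -0.45, -0.06 and -0.13 in the same order, against -0.01 for all genes, with 5 of 12, 4 of 17, 8 of 21 and 2 of 8 above 0. Beside them the median was -0.24 for the cortical excitatory markers (2 of 12 above 0) and -0.10 for the astrocyte markers (3 of 13 above 0), with no marker called, and the mCRS libraries detected a lower share of genes. The part of these in the list medians was not tested. In the NAc, 15, 17, 21 and 10 genes of these lists were tested, none passed, and the medians lay between -0.10 and 0.04. Without NAc CTR 7 and NAc mCRS 10 none passed and the medians lay between -0.14 and 0.05. The difference between the regions was called for none of the genes of these lists.

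Across the 62 libraries, after the mean of each group was taken away, no receptor gene followed another closely. The Spearman correlations of log2 CPM between receptor genes lay between -0.365 (Grm4 and Grm7) and 0.237 (Grm3 and Grm7). Among the genes most like each receptor gene over these 62 libraries were Add2, Celf2 and Iqce for Grm5 (0.467 to 0.437), Ankmy1, Tnks1bp1 and Pmm2 for Grm2 (0.495 to 0.464), and B3galnt2 and Pdxk for Grm3 (0.460 and 0.432). For group III they were Ptdss1, Cdkn1b and Nkain3 for Grm4 (0.497 to 0.453), Mettl17, Mob4 and 1700017B05Rik for Grm7 (0.4998 to 0.4923), and Nudt9, Pigx and Cldn12 for Grm8 (0.519 to 0.420). These are the highest values found over the 11025 genes compared, which also share library depth, with which the receptor genes themselves correlated at -0.190 (Grm8) to 0.286 (Grm2).

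**Figure D5:**
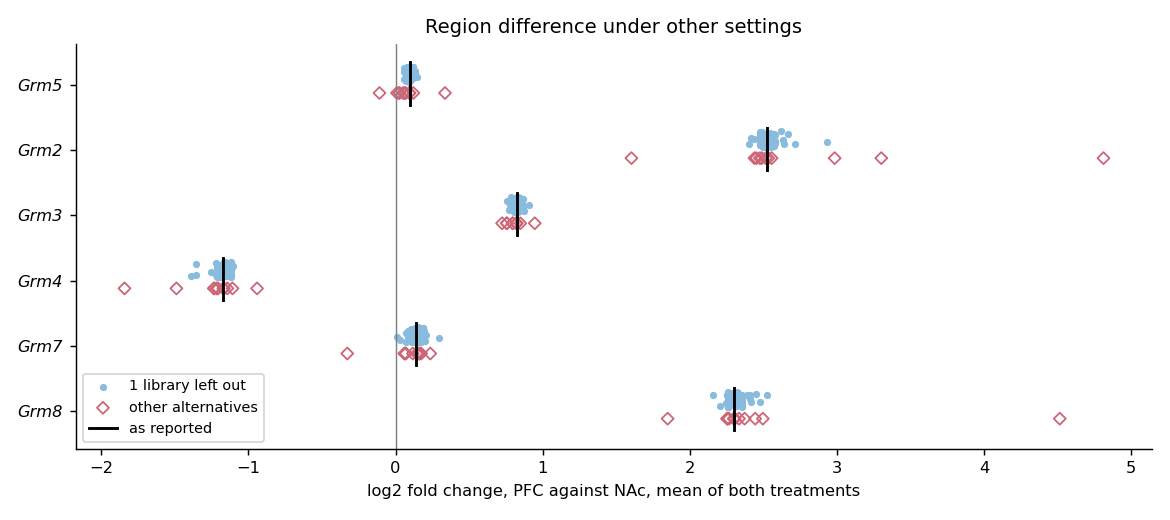
Log2 fold change of PFC against NAc over both treatments for each receptor gene as reported (black line), with 1 library left out (blue points) and under the other alternatives (red diamonds). Grm2, Grm3 and Grm8 stay above 0 and Grm4 below 0 at every setting, whereas Grm5 and Grm7 reach both sides of 0.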

How the data were processed

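The authors mapped reads with STAR to GRCm38/mm10 and counted uniquely mapped reads per gene with htseq; the deposited values are unnormalized counts per gene. PCR copies were counted without molecular identifiers, so a count is not a number of molecules. Intervals from counts cover counting error and the spread between libraries only. Copying that varied between libraries is part of that spread. Which PFC and NAc libraries come from 1 mouse is not stated, and libraries were taken as independent. Samples were grouped by their labels.

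Counts were fitted with edgeR 4.0.16 in R 4.3.3 (TMM normalization, default filter by group, quasi-likelihood test, Benjamini-Hochberg adjustment over all genes tested, threshold 0.05). Effects of mCRS were fitted within each region, and region comparisons and the interaction over all 62 libraries. The script was tested on simulated data. The comparison over both treatments was added after seeing the data. Alternatives were DESeq2 1.42.0, RLE factors, other filters, thinning to 945286 counts, covariates, a replicate block and leaving out each library. The receptor genes, and the lists of signalling and marker genes, were chosen with earlier results of these data known. The text names all 6 receptor genes, up to 3 genes of smallest p past the threshold per list and comparison, and the 3 genes most like each receptor gene; some genes that this rule covers are not reported here. Coordinates are from GENCODE M21.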

Additional observations from a re-analysis of the deposited data

How the results depend on the processing

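The receptor genes called in a comparison were 0 in the PFC with mCRS, 0 in the NAc with mCRS and 0 for the difference between regions under every alternative that was run. Between the regions in CTR mice the number called was 1, and it was 0 with RLE factors, 0 with the number of genes detected per library as a covariate and 2 with DESeq2; within libraries numbered 1 to 8 or 9 and above, chosen after seeing the data, it was 0 in each. In mCRS mice it was 0 as reported and 1 with that covariate, with the replicate block and with DESeq2. Over both treatments it was 3. It was 2 with the number of genes detected as a covariate, where Grm8 was lost, and 2 with the replicate block, where Grm3 was lost. It was 1 in libraries 1 to 8 and 0 in libraries 9 and above. The share of all genes called under each alternative is not reported here. Leaving out 1 library gave 0 to 1 in CTR mice, 0 to 1 in mCRS mice (Grm2, without NAc mCRS 1 or NAc mCRS 15, with log2 fold changes of 3.49 and 3.04) and 3 throughout over both treatments; the causes were not tested.

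Signs turned only for genes with no call. With mCRS in the PFC these were Grm4 (1.01 in libraries 9 and above, -0.56 to 0.23 when 1 library was left out, the last without PFC CTR 3), Grm7 (-0.68 with the replicate block) and Grm8 (-0.30 with the number of genes detected). In the NAc it was Grm7 (0.053 thinned, 0.12 without both libraries that stood apart, 0.33 in libraries 1 to 8, -0.386 to 0.032 when 1 was left out, the last without NAc CTR 7). Between regions it was Grm7 in CTR mice (0.018 thinned, 0.071 without both libraries, 0.21 in libraries 1 to 8, and -0.290 to 0.072 when 1 was left out), in mCRS mice (-0.60 with the block) and over both (-0.33 with the block), and Grm5 over both (-0.11 in libraries 1 to 8). For the difference in effect they were Grm2 (-0.49 in libraries 1 to 8), Grm4 (0.13) and Grm8 (0.54), both in libraries 9 and above, and Grm7 (-0.54 with the block).

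After the mean of each group was taken away, same-numbered PFC and NAc libraries correlated at -0.0154 to 0.0246 in CTR mice. In mCRS mice they did so at -0.0257 to 0.0204. Same-numbered CTR and mCRS libraries of 1 region lay between -0.0304 and 0.0533. With no pair of libraries known to come from 1 mouse, these values cannot show whether the numbers pair the libraries. With the replicate block, the number called was 1 in CTR mice (Grm8 in place of Grm3), 1 in mCRS mice (Grm2) and 2 over both treatments, where the adjusted p of Grm3 was 0.0789. Over both treatments the block moved the log2 fold change of Grm2 from 2.52 to 4.81 and that of Grm8 from 2.30 to 4.51.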
